A study of Mus musculus with 4 samples.

Results

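The genes of 10 transcriptional regulators of the endothelial lineage were examined for H3K27ac in mouse liver sinusoidal endothelial cells (LSECs), the fenestrated endothelium of the hepatic sinusoid. The members were 8 ETS family genes, *Erg*, *Fli1*, *Ets1*, *Ets2*, *Elk3*, *Etv2*, *Etv6* and *Elf1*, together with *Tal1*, which encodes the basic helix-loop-helix factor SCL, and *Lmo2*, which encodes the LIM-only adaptor that SCL binds. The 10 were taken by name, with no measured value in the rule, and the RefSeq gene table (GRCm38.p6) holds 21887 protein-coding genes in all.

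The data were 2 H3K27ac ChIP-Seq libraries of isolated LSECs, called replicate 2 and replicate 3 after their titles, each with a peak list of its own. Both libraries carried the same label, with no treatment, genotype, strain, age or time point given, so the series held a single condition and no group was set against another. The 2 input libraries were not analysed here. According to the methods of the study, LSECs were purified from perfused liver with anti-CD146 beads. The general isolation method adds a brief culture, whereas the ChIP-Seq method names isolation and cross-linking and no culture. The mice of the study carried floxed *Col4a1* or dCas9-KRAB alleles, some with the endothelial Cdh5CreERT2 driver. Which mice gave these libraries is not stated, nor whether the replicates were separate animals.

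ETS factors share a DNA-binding domain that reads a GGAA core, and enhancers and promoters of most endothelial genes carry such cores. ERG and FLI1 are closely related and maintain endothelial identity in the adult, ETV2 acts in the embryo to start the endothelial and blood lineages and is then shut off, and ETV6 and ELK3 are known mainly as repressors. SCL and LMO2 work in a complex with E proteins, GATA factors and LDB1 in blood and endothelial progenitors. H3K27ac, acetylation of lysine 27 of histone H3, marks promoters and enhancers of active genes; it does not measure the transcript, and in a pool of cells the share of cells that carry the mark and the amount per cell cannot be told apart.

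A region is an H3K27ac peak, or a group of overlapping peaks of both libraries merged into 1. It was called shared when peaks of both libraries overlapped by at least 1 bp, proximal when it lay within 1 kb of either end of the gene, and distal otherwise. The locus of a gene is its body plus 10 kb on each side. Fold enrichment is the peak caller's ratio of signal to local background in 1 library, and the highest peak stands for a region.

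Across the whole lists, replicate 2 had 26975 peaks and replicate 3 had 64498, a ratio of 2.39, and 37.4% of the 64629 merged regions were shared. Each list held only peaks at a q-value of 0.01 or lower. The LSEC label was checked on marker lists. A shared region within 1 kb of a gene end was found at 8 of 12 LSEC and endothelial markers, 2 of 10 hepatocyte markers (*Trf* and *Ass1*), 0 of 8 hepatic stellate cell markers, 1 of 8 Kupffer cell and macrophage markers (*Cd68*, whose region also lay at the end of another coding gene), 3 of 10 markers of other blood cells (*Cd79a*, *S100a8* and *Klf1*) and 0 of 6 cholangiocyte markers. A replicate 3 peak lay there at 12, 4, 1, 1, 3 and 1 of them, in the same order. Over all protein-coding genes the shares were 44.1% for a shared region and 53.9% for a replicate 3 peak. A shared distal region was found at 11 of the 12 LSEC and endothelial markers, where 39.3% of coding genes had one. It was found at 0 of 8 hepatic stellate cell, 2 of 8 Kupffer cell and macrophage, 2 of 10 other blood cell and 1 of 6 cholangiocyte markers. Of the 10 hepatocyte markers 4 had one, *Alb*, *Trf*, *Ass1* and *Fgb*, near the share of coding genes. Of those 4, all but that of *Alb* lay at the end of another coding gene; the *Alb* region had folds of 7.93 and 16.9 in replicates 2 and 3, and the *Fgb* region, at the end of *Plrg1*, had 48.8 and 141. The part of hepatocyte chromatin in the values of the 10 genes was not tested.

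The 10 loci, 1130 kb in all, held 213 H3K27ac regions, of which 73 were shared, 138 were found in replicate 3 alone and 2 in replicate 2 alone. Distal regions made up 68 of the 73 shared regions and 131 of the 138 found only in replicate 3. Of the shared distal regions, 59 lay inside the gene body and 9 in a flank. Shared regions were 34.3% of the regions in these loci, close to their share of the whole lists, and replicate 3 had 2.65 times as many peaks here as replicate 2 (212 and 80). The counts ran from 44 regions with 14 shared at *Ets1* to a single, shared region at *Etv2*. *Etv6* also had 14 shared regions, *Elk3* had 13 and *Erg* 11, whereas *Fli1* had 3 and *Lmo2* 2.

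**Figure D1:**
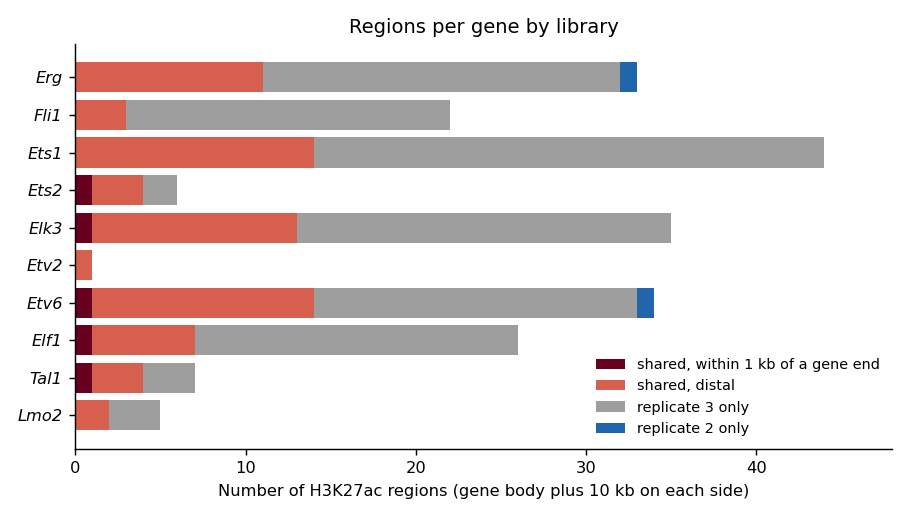
Number of H3K27ac regions in the body plus 10 kb of each of the 10 genes, stacked by whether the region was shared by both libraries and within 1 kb of a gene end, shared and distal, or found in 1 library. *Ets1* has the longest bar, 44 regions, and 5 genes have a dark segment for a shared region at a gene end.

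A shared region within 1 kb of a gene end was found at 5 of the 10 genes, *Ets2*, *Elk3*, *Etv6*, *Elf1* and *Tal1*, where 44.1% of protein-coding genes had one. For a replicate 2 peak the count was the same 5 genes, against 43.4% of coding genes. For a replicate 3 peak it was 8, with *Fli1*, *Ets1* and *Lmo2* added, against 53.9%. No start site was given for those added, so their marked ends cannot be called promoters. The share of members with a marked end was thus near the background in replicate 2 and above it in replicate 3, on 10 genes. Ends of other coding genes lay inside some loci, *Cdk17* near *Elk3*, *Cox6b1* and *Rbm42* near *Etv2*, the predicted gene *Gm46977* near *Etv6*, and *Wbp4* and *Sugt1* near *Elf1*. Without regions within 1 kb of such an end, the count of genes with a shared region at an end was 3, as *Etv6* and *Elf1* dropped out, against 31.2% of coding genes, and with a reciprocal overlap of 50% it was 2, against 22.4%.

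At least 1 shared distal region was found at 10 of 10 genes, where 39.3% of coding genes had one. The count was 9 without regions at the ends of other coding genes, which removed *Etv2*, against 28.8% of coding genes, and 8 in the gene bodies with no flank, which removed *Etv2* and *Tal1*, against 19.4%. It was 9 with a reciprocal overlap of 50%, which removed *Fli1*, against 25.2%. The median number per gene was 4.5 against 0, and 8 of the 10 were in the top 10% of coding genes by this count. These genes are long, with a median of 82.5 kb against 17.2 kb for coding genes, and a longer locus holds more regions. Per length, the median was 0.564 shared regions per 10 kb against 0.159. The share of the locus covered by peaks of both libraries had a median of 2.88% over the 10 genes and 0.577% over coding genes. In replicate 2 alone the medians were 2.97% and 0.584%, and in replicate 3 alone 8.68% and 2.07%. All 10 genes lay above the median coding gene, *Fli1* only just (0.585%) and *Etv2* through the region at the end of *Cox6b1*, and 2 of them, *Tal1* (4.94%) and *Elk3* (4.53%), were in the top 10%. With 1 condition and peak lists only, no test was made of any of these differences.

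**Figure D2:**
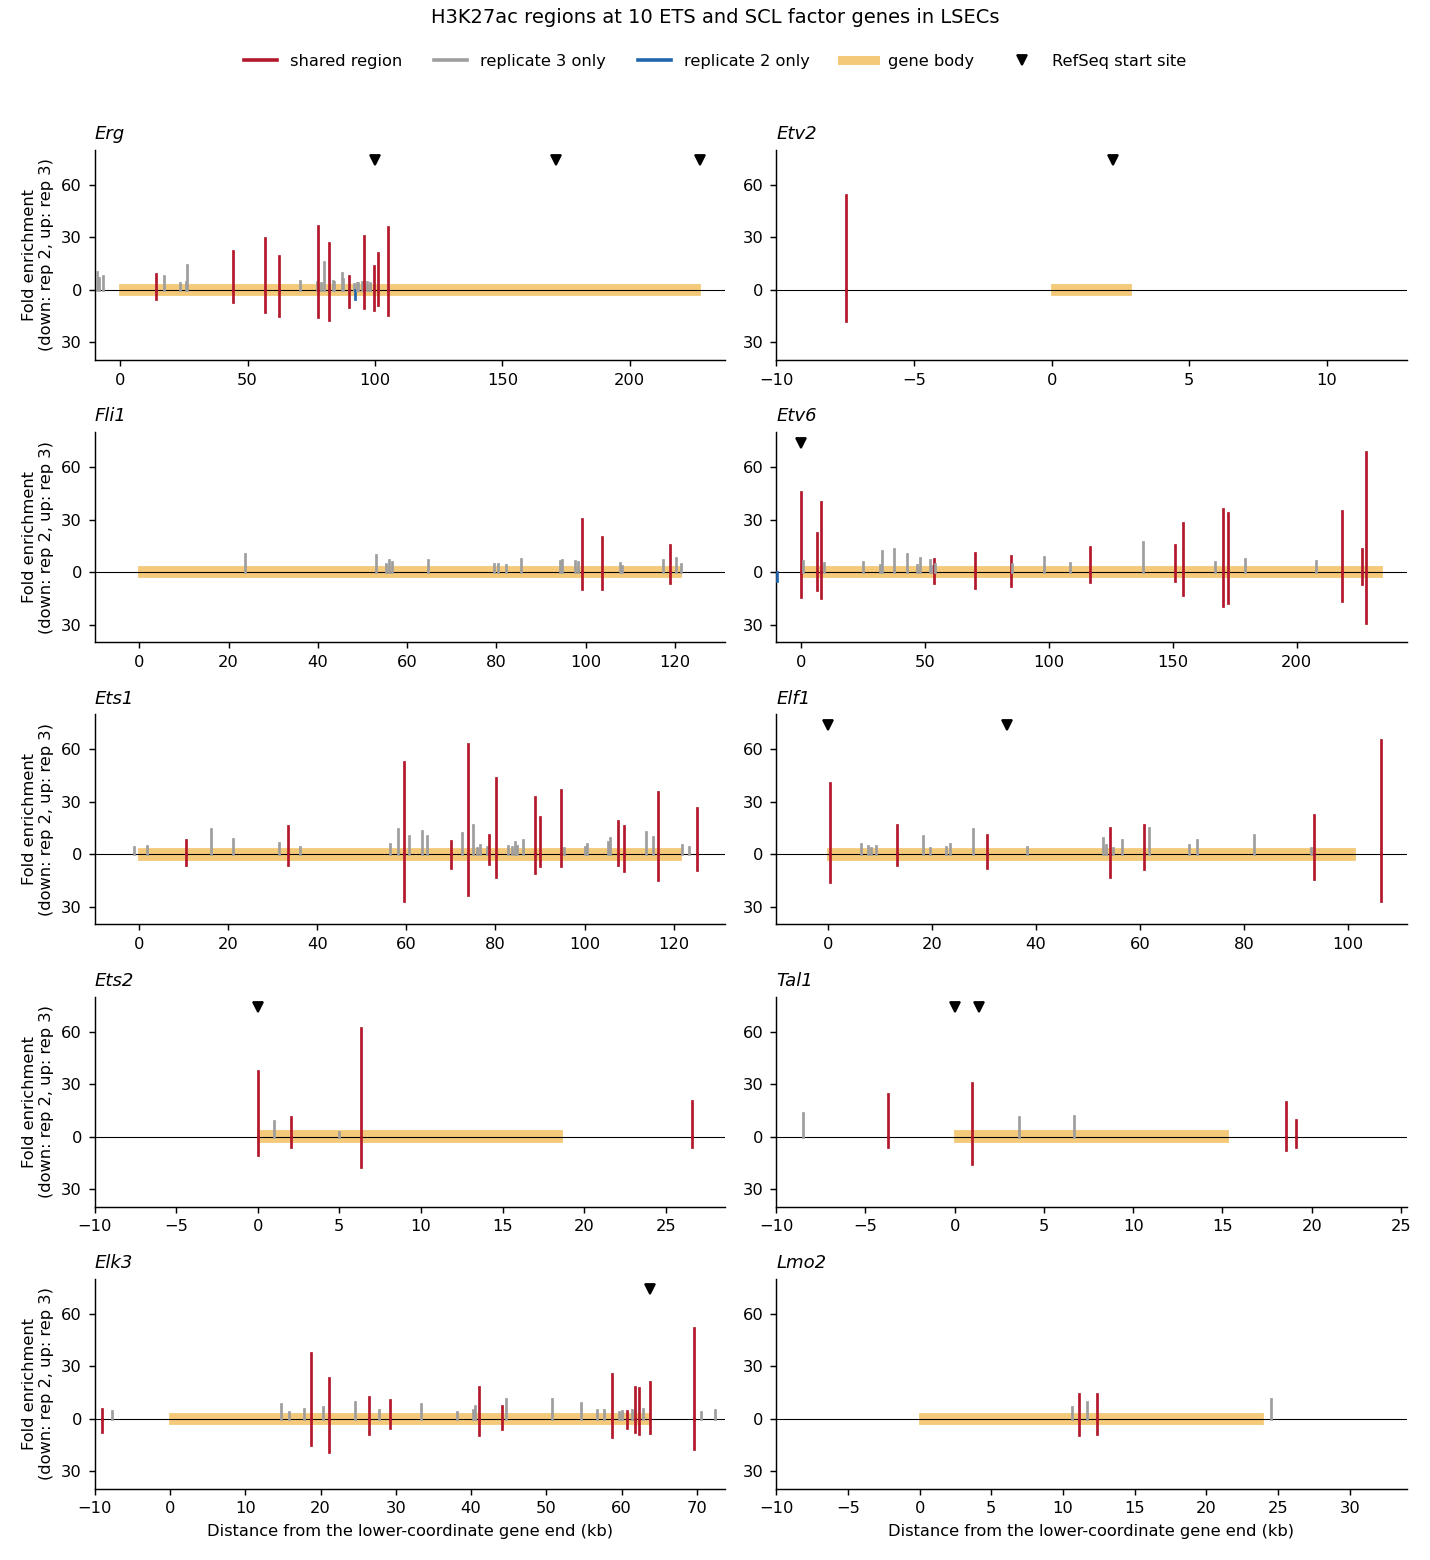
Maps of the 10 loci, with the distance from the lower-coordinate gene end in kb on the x axis and the fold enrichment of each region on the y axis, upward for replicate 3 and downward for replicate 2; red lines are shared regions, grey and blue lines regions of 1 library, the orange bar the gene body and triangles RefSeq start sites where a promoter entry gave them. The red lines at *Erg* stop at 106 kb, just past the inner start site and far from the outer one, while those at *Ets1* and *Etv6* run through the body.

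*Erg* (chr16:95359169-95586600, minus strand) carried its shared H3K27ac in the 3′ part of the gene. All 11 shared regions were centred below the midpoint of the body, which on the minus strand is its 3′ side, and 7 of them lay within 25 kb of the innermost of its 3 RefSeq start sites. That start, at position 95459348 and 127 kb inside the outer 5′ end, fell within a shared region of 1814 bp with folds of 11.5 in replicate 2 and 13.6 in replicate 3. It counted as distal, since it was far from either end of the gene.

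The *Erg* regions with the highest folds in one library or the other lay on both sides of this inner start, at differing distances. The region at chr16:95463594-95465007, 4246 bp upstream of it, had folds of 14.2 and 35.8 in replicates 2 and 3. On the other side, chr16:95436608-95437223, 22125 bp away, had 15.4 and 36.5. The longest region at 2539 bp, chr16:95439795-95442333, lay 17015 bp away and had 17.4 and 26.8. Nearer on that side, chr16:95454436-95455412, 3936 bp away, had 10.2 and 31. From the last shared region to the outer 5′ end and 10 kb beyond it, 132 kb held no peak of either library. The outer start, at 95586593, had its nearest replicate 2 peak at 115 kb and its nearest replicate 3 peak at 18.8 kb, and the middle start had its nearest peak of either library at 65.4 kb.

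The promoters of the inner and the outer of the 3 *Erg* starts differ in sequence, and are shown because only the inner had a peak within 1 kb. Each line gives the 250 bases before the start on the gene's strand, from the RefSeq promoters of GRCm38.p6, with each GGAA core, or TTCC where it is on the other strand, in capitals.
Erg inner start, chr16:95459349-95459598, minus strand: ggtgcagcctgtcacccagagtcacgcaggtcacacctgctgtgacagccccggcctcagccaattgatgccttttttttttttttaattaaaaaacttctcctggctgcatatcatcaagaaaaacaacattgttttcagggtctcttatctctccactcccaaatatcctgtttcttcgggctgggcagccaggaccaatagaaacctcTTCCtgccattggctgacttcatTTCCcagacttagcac
Erg outer start, chr16:95586594-95586843, minus strand: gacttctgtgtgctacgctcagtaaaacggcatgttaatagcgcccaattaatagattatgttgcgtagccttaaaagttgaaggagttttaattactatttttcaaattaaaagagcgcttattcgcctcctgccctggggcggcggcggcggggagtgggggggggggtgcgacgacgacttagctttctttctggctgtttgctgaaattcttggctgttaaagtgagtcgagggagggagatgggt
The inner promoter held 2 cores near the start and the outer none. The middle start, which is not printed and also had no peak within 1 kb, held 4 in its 250 bases, so the number of cores did not follow the mark. Over the 300-base window, which adds 50 bases after the start, the inner promoter had a GC content of 46% and a CpG observed over expected ratio of 0.275. The outer had 50.3% and 0.941. Over all start sites the median CpG ratio was 0.809 with a shared region within 1 kb and 0.27 without one, so the inner *Erg* start was close to the median of unmarked starts and the outer above that of marked ones.

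*Fli1* (chr9:32422204-32543432), the closest relative of *Erg*, had 3 shared regions among 22, all centred above the midpoint of its body. Their folds in replicates 2 and 3 were 9.43 and 30.3 at chr9:32521031-32521772, 9.58 and 19.9 at chr9:32525578-32526273, and 6.13 and 15.3 at chr9:32540121-32541971. The last of these ended 1.46 kb before the gene end, just outside the 1 kb limit. Nearer that end lay 2 regions of replicate 3 alone, at 0.805 and 0.041 kb, with folds of 7.81 and 4.56. With a reciprocal overlap of 50%, none of the 3 was shared. At 1 kb, no shared region met the limit at *Fli1*, and 1 did when the limit was set at 2.5 kb. *Fli1* had the lowest covered share of the 10, at percentile 50.2 among coding genes, but percentile 79.3 in replicate 3 alone.

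*Ets1* (chr9:32636241-32757820), an ETS factor of endothelium and lymphocytes, had the most regions, and its shared regions were in the body rather than at its ends. Replicate 3 peaks covered 15.3% of this locus, against 3.24% for replicate 2. Of its 14 shared regions, 10 were centred above the midpoint of the body, 3 below it, and 1 lay 2.96 kb past the gene. The strongest in replicate 3 was chr9:32709476-32710623, with folds of 23 and 62.8 in replicates 2 and 3. In replicate 2 it was chr9:32695108-32696502, with 26.4 and 52.8. Both were in the top 10% of the replicate 3 list, at percentiles 94.5 and 92.3, and the second was in the top 10% of the replicate 2 list as well. Within 1 kb of its ends there was only a replicate 3 peak, 16 bp beyond the higher-coordinate end, with a fold of 5.61. The region nearest the lower-coordinate end, 1.05 kb away, was also of replicate 3 alone. No RefSeq start was given for *Ets1*, so whether its start sites, at an end or inside the body, were marked could not be seen.

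*Ets2* (chr16:95702407-95721049, plus strand), next to *Erg* on the chromosome, was 18.6 kb long and had an acetylated promoter. The promoter region, chr16:95701647-95703143, contained the RefSeq start and had folds of 10.8 and 37.5 in replicates 2 and 3. A distal region inside the gene, chr16:95708388-95709121, 5.98 kb from the start, was stronger in both libraries, with 17.4 and 62.2. The 2 other shared regions each had a fold of 6.1 in replicate 2, and 11.1 and 20.5 in replicate 3.

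*Elk3* (chr10:93247415-93311159, minus strand), a ternary complex factor, was marked at its promoter and along its body, and had the highest density of shared regions, 1.55 per 10 kb. The promoter region, chr10:93310856-93311516, had modest folds of 8.13 and 21.2 in replicates 2 and 3. Its strongest replicate 3 region lay 5.31 kb upstream, chr10:93316471-93317610, with 17.1 and 51.8. Within the gene, chr10:93268352-93268777 had 19.1 and 23.3, the highest in replicate 2, and chr10:93265737-93266474 had 15.2 and 37.4. Of its 10 shared distal regions in the body, 4 lay between 1.23 and 4.42 kb from the 5′ end. *Elk3* also held 2 of the 4 shared regions with a lower fold in replicate 3 than in replicate 2, 7.46 against 5.71 in its 3′ flank and 5.42 against 4.72 in its body.

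*Etv6* (chr6:134035700-134270158, plus strand) had an acetylated promoter and shared regions spread along the whole of its 234 kb, 6 below and 7 above its midpoint. The promoter region, chr6:134034827-134036275, had folds of 14.2 and 45.6 in replicates 2 and 3, and also lay at the end of a predicted coding gene, *Gm46977*, 0.388 kb away. The strongest region of the 10 loci in either library was near the other end of *Etv6*, chr6:134262887-134264159, 6 kb inside it, with 28.8 and 68.4. Those values were at percentiles 93.7 and 95.5 of the replicate 2 and replicate 3 lists. A pair of regions 170 and 173 kb from the start, chr6:134205240-134206410 and chr6:134207655-134208674, had replicate 2 folds of 19.2 and 17.6 and replicate 3 folds of 36.3 and 33.9.

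*Elf1* (chr14:79481174-79582491, plus strand) had an acetylated outer promoter. That region, chr14:79480528-79482664, had folds of 15.6 and 40.7 in replicates 2 and 3, but an end of the neighbouring gene *Wbp4* is 0.094 kb away, and marks of the 2 genes cannot be told apart there. The strongest region of the locus, with 26.4 and 65.5, likewise lay at the end of another gene, *Sugt1*, and 4.28 kb past *Elf1*. The 5 shared regions inside *Elf1* were lower, from 6.1 to 14.2 in replicate 2 and from 10.9 to 22.7 in replicate 3. The inner RefSeq start, 34.5 kb inside the gene, had no peak within 1 kb, the nearest being at 3.63 kb in replicate 3.

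*Etv2* (chr7:30633616-30636509, minus strand) had no H3K27ac peak in either library over its body or at its start. The one shared region of its locus, chr7:30625808-30626467, with folds of 17.7 and 54.4, lay 7.15 kb away, at the end of *Cox6b1*, a subunit of cytochrome c oxidase. The nearest peaks to the *Etv2* start were at 9.52 kb in replicate 2 and 9.38 kb in replicate 3. When regions at the ends of other coding genes were left out, *Etv2* had none. Its promoter window nevertheless held 11 GGAA cores on the 2 strands, the most of the 11 windows, where the median over all promoters was 3.

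*Tal1* (chr4:115056426-115071755, plus strand) had the highest covered share of the 10 genes and shared regions at its promoters, upstream and downstream of the gene. A single shared region of 2397 bp, chr4:115056183-115058579, spanned both RefSeq starts, 1.39 kb apart, with folds of 15.6 and 30.9 in replicates 2 and 3. Only replicate 3 had a peak over the starts themselves. The nearest replicate 2 peak lay 0.131 kb from the outer start and 0.426 kb from the inner one. The upstream region, chr4:115052325-115053039, ended 3.39 kb before the gene and had 6.1 and 24.5. Downstream, chr4:115074766-115075193 and chr4:115075308-115075848 had their replicate 3 summits 18.6 and 19.3 kb from the outer start, 3.01 and 3.55 kb past the end of the gene, with replicate 2 folds of 7.66 and 6.1 and replicate 3 folds of 19.8 and 9.44. *Tal1* is known for enhancers both upstream of its promoters and downstream of its last exon that act in blood and endothelial progenitors; whether these regions are such enhancers was not tested.

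*Lmo2* (chr2:103957903-103981878) had 5 regions, 2 of them shared, near the middle of the gene, with a replicate 3 region of fold 9.56 between them. Their folds in replicates 2 and 3 were 9.49 and 14.3 at chr2:103968804-103969240, and 8.81 and 13.9 at chr2:103969850-103970649. Its highest fold was the lowest among the highest folds of the 10 genes in both libraries, though in replicate 2 that of *Fli1* was close to it (9.58). Only replicate 3 had a peak near a gene end, at 0.429 kb, with a fold of 11.5.

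In the 73 shared regions, the fold had a median of 9.49 in replicate 2, from 5.26 to 28.8, and of 21.1 in replicate 3, from 4.72 to 68.4. Replicate 3 was the higher in 69 of them, with a median ratio of 2.25, where the ratio over all 24199 shared regions of the lists was 2.47. The order of the regions was much alike in both, with a Spearman's rho of 0.77 across the 73 regions and 0.84 across all shared regions; regions are not independent replicates, and no p-value is given. Within the lists, their median percentile was 47.8 in replicate 2 and 76.1 in replicate 3, and 32 and 66 of the 73 were above the median peak. In the top 10% there were 3 in replicate 2 and 8 in replicate 3. Their medians were a little below those of all shared regions, 10.5 and 27. In replicate 2, 10 of the 73 had a fold that rounded to 6.1, so small differences at the low end of that library do not separate regions.

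**Figure D3:**
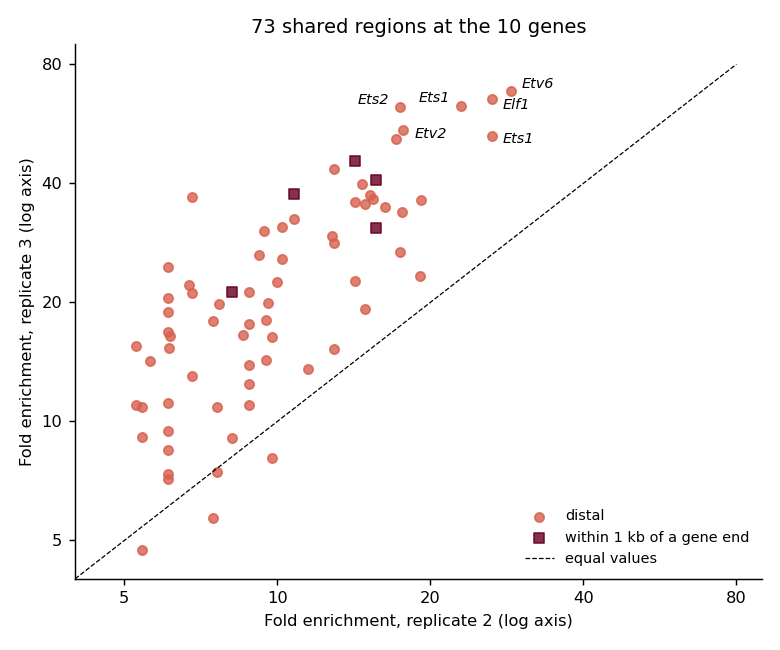
Fold enrichment of the 73 shared regions in replicate 2 (x axis) and replicate 3 (y axis), both on log axes, with squares for the 5 regions within 1 kb of a gene end and circles for the 68 distal ones; the dashed line marks equal values and the 6 regions highest in replicate 3 are named. All but 4 points lie above the line, and the 5 squares lie within the range of the circles.

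Regions found in replicate 3 alone were weaker, with a median fold of 5.94 and a range from 2.81 to 17.3, and 33 of 138 were above the median of the replicate 3 list. The highest was at *Etv6*, 17.3, and the highest at *Ets1* and *Erg* were 16.7 and 16.2. The 2 regions of replicate 2 alone, at *Erg* and 9.45 kb upstream of *Etv6*, had folds of 5.42 and 4.88. They lay at percentiles 7.67 and 3.7 of the replicate 2 list.

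Promoter sequences were given for 7 of the 10 genes, with 11 start sites: *Erg*, *Ets2*, *Elk3*, *Etv2*, *Etv6*, *Elf1* and *Tal1*. A shared region lay within 1 kb of 7 of these 11 starts, against 44.7% of all 21263 start sites. By gene it was 6 of the 7, against 45.9% of the 17492 coding genes with an entry. *Etv2* was the exception, and *Erg* entered through its inner start alone. The members left out for want of an entry, *Fli1*, *Ets1* and *Lmo2*, had no shared region at a gene end, which raises the share among the 7. The regions at *Etv6* and *Elf1* also lay at ends of other coding genes. Beside those of *Erg*, 4 promoters with a shared region within 1 kb of the start are printed in the same way. At the outer *Tal1* start only the replicate 3 peak covered the start itself.
Tal1 outer start, chr4:115056176-115056425, plus strand: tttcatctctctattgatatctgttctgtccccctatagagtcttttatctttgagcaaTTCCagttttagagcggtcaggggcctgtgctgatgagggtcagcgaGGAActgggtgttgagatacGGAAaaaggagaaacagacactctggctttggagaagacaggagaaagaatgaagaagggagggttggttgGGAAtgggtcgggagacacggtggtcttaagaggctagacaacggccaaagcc
Ets2 start, chr16:95702157-95702406, plus strand: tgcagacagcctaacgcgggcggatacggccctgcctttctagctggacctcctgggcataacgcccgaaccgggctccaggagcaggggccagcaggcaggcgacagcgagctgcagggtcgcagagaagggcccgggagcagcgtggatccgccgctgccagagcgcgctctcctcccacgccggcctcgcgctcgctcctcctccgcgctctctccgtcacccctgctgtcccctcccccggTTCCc
Elk3 start, chr10:93311160-93311409, minus strand: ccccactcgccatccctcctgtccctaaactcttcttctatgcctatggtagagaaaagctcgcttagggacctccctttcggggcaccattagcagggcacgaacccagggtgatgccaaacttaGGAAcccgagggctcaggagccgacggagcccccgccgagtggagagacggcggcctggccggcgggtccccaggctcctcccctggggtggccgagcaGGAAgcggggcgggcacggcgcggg
Etv6 start, chr6:134035450-134035699, plus strand: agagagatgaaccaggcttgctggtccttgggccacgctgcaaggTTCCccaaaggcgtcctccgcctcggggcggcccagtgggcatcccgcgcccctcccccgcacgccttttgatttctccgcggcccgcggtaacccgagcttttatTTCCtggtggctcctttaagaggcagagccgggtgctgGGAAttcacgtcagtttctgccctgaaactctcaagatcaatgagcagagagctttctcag
The core was in 11 of 11 windows, but also in 95.7% of all promoter windows. The longer ETS motifs CCGGAAGT and ACAGGAAG, each of which contains the core, were in 0 of 11, where 5.15% and 3.23% of all windows held them. The GATA motif AGATAA was in 2 windows, the inner *Erg* and the outer *Tal1* start, against 9.65% of all. The outer *Tal1* window was also the only 1 of the 11 with the E-box CAGATG, found in 14.6% of all windows, and any E-box, CANNTG, which includes it, was in 3 against 69%. The KLF and SP motif GGGCGG was in 6 against 46.2%, and an AP-1 motif, TGACTCA or TGAGTCA, in 1, the inner *Elf1* start, against 4.66%. Motifs were searched on both strands, and 11 windows of 7 genes are too few to rank them.

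The GC content of the windows went from 37.3% at the middle *Erg* start to 73% at the outer *Elf1* start. The *Ets2* and *Elk3* windows were CpG-rich, with GC contents of 71.7% and 71.3%. Among the 7 acetylated starts, the inner *Erg* start had the lowest CpG ratio, 0.275, the others being from 0.647 at the outer *Tal1* start to 1.08 at the outer *Elf1* start. Of the 4 starts without a peak, 3 had ratios from 0.191 to 0.266.

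**Figure D4:**
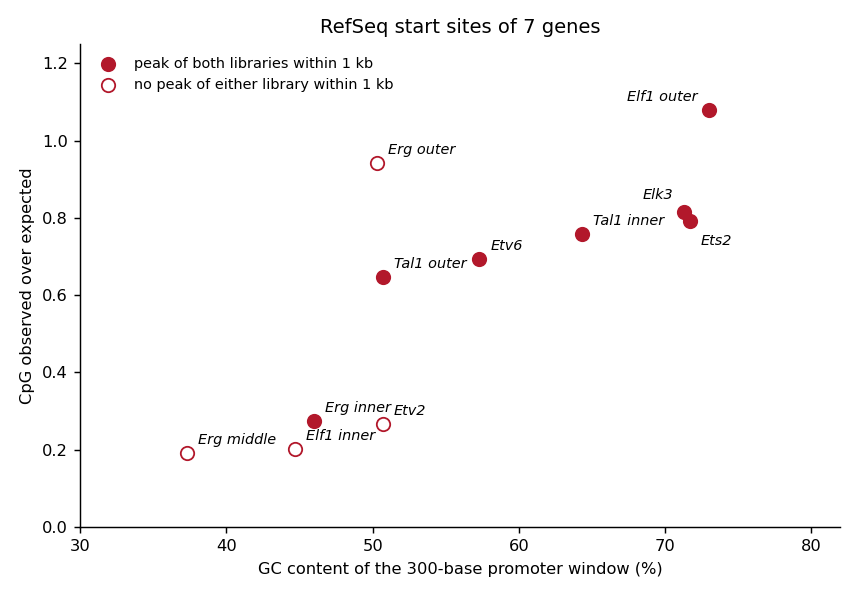
GC content (x axis, percent) and CpG observed over expected (y axis) of the 300-base promoter windows of 11 RefSeq start sites in 7 genes, filled where both libraries had a peak within 1 kb and open where neither had. The inner *Erg* start is filled at a ratio of 0.275 and the outer *Erg* start is open at 0.941, each apart from the other points of its kind.

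The median covered share was lower over the rest of the ETS family, a difference that was not tested. Of 18 other ETS genes, 9 had a shared region within 1 kb of a gene end, the same share as 5 of the 10 genes, against 44.1% of coding genes. A shared distal region was found at 6 of the 18, against 39.3% of coding genes. The 18 genes were 3.97 to 90.4 kb long, against a median of 82.5 kb for the 10 members, and a longer locus holds more regions. The median covered share was 0.734%, at percentile 53.7, against percentile 85.5 for the 10 genes. Of the 18, 10 were above the median coding gene, and *Erf*, at 8.37% (percentile 99.1), was above every one of the 10 members. *Elf2* and *Etv1* had the most shared regions, 5 each, then *Elf4* and *Erf* with 3 each. *Spi1*, which encodes the myeloid factor PU.1, had a shared region at a gene end and highest folds of 12.8 and 52.1 in replicates 2 and 3, whereas *Spic*, a factor of red pulp macrophages, had no peak in either library. Among 14 partners of SCL and LMO2, 5 had a shared region at a gene end and 10 a shared distal region, against the same 44.1% and 39.3% of coding genes. The E protein gene *Tcf4* had 22 shared regions, *Ldb2* 8 and *Tcf12* 7, in genes of 268 to 364 kb, and the median covered share was 0.644%. *Gata1*, the erythroid partner, *Lmo1* and *Lmo3* had no peak, whereas *Gata2*, the endothelial GATA partner, had 3 shared regions.

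Endothelial genes known to carry ETS or SCL sites had a median covered share of 2.33%, at percentile 80.7. A shared region at a gene end was found at 16 of the 22, against 44.1% of coding genes, and a shared distal region at 17, against 39.3%. Of the 22, 20 had a covered share above that of the median coding gene. The other 2, *Emcn* and *Icam2*, had peaks of replicate 3 alone and no base covered in both libraries. *Kdr*, the VEGF receptor, had 12 shared regions, and *Cdh5*, the VE-cadherin gene, *Pecam1* and *Mef2c* had 9 each. In *Cdh5*, peaks of both libraries covered 8.89% of the locus. The 22 and the 12 LSEC markers have 4 genes in common.

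**Figure D5:**
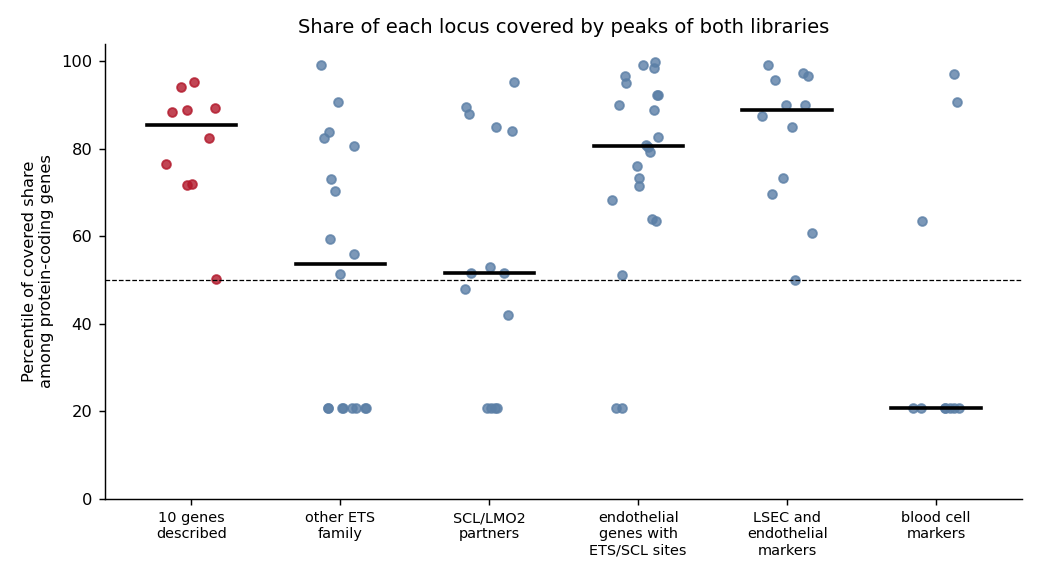
Percentile among 21887 protein-coding genes of the share of each locus covered by peaks of both libraries, 1 point per gene, with black lines at the medians of 6 lists and a dashed line at the 50th percentile. The median is 85.5 for the 10 genes, 53.7 for other ETS genes and 51.6 for partners of SCL and LMO2; points at 20.8 are genes with no base covered in both libraries, which share that rank.

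Several of these factors are also expressed in blood cells, so blood markers are given beside them. Of the 10 markers of other blood cells, *Ptprc*, *Cd3e*, *Itgam* and *Ms4a1* were among those with no peak in either library over the gene body plus 10 kb, and the median covered share was 0%. *Klf1* and *Cd79a* had 3 shared regions each, with highest folds of 22 and 21.7 in replicate 2. Some regions at these blood markers lay at the ends of other coding genes. Without such regions, a shared region at a gene end was left at 2 of 3 blood markers and a shared distal region at 1 of 2. Among Kupffer cell and macrophage markers, 6 of 8 had no peak, and no share of coding genes without a peak is given beside this count. The other 2 had shared distal regions, with highest folds in replicates 2 and 3 of 40.3 and 58.4 at *Cd68* and 17.6 and 32.7 at the other. Without regions at the ends of other coding genes, a shared distal region was left at 1 of these 2. The part of blood cells in the *Fli1*, *Ets1*, *Elf1*, *Tal1* and *Lmo2* values was not tested.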

How the data were processed

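H3K27ac ChIP-Seq was deposited for 2 libraries of isolated mouse LSECs as 1 peak list each, on mm10; 2 inputs were not analysed here. The submitters' processing notes name cutadapt 0.4.4, BWA 0.7.17, Picard 1.67, MACS2 2.0.10 and bedtools 2.27.1. The deposited values, made by the authors' peak caller, are the fold enrichment (a ratio to local background), the −log10 p-value and −log10 q-value, a score that is 10 times the −log10 q-value, and the summit position. Whether the inputs served as control is not stated, and depth is unknown, since the lists hold no read counts, so no counting interval is given. The sample records describe sonication and a ligation kit and the study's methods tagmentation; which applied is not known. Either step can move peak edges, and with them the covered share.

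From these lists, peaks in each gene body plus 10 kb (GRCm38.p6 RefSeq gene table) were merged across libraries where they overlapped by 1 bp, and split at 1 kb from a gene end. RefSeq promoter windows of the same build were used as given, 250 bases before to 50 after a start; *Fli1*, *Ets1* and *Lmo2* were not matched. Percentiles are among 21887 protein-coding genes, with ties at their middle rank. Counting was checked on a made-up set of 200 genes with planted peaks, and returned the planted values for all 200. Python 3.11.15, numpy 2.4.6, pandas 2.3.3 and matplotlib 3.10.9 were used.

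No test was run, as 1 condition was measured. The text names the 10 members and genes with an end inside a member's locus. Of the other ETS, partner and target lists it names the 3 genes with the most shared regions, with ties, and those with no peak. Marker genes, with or without a peak, are named only in part. *Gata2*, *Spi1*, *Emcn*, *Icam2*, and the marker genes named for a shared region, were named after their values were seen. One marker gene is not reported here. The members and lists were chosen with earlier results of these data known. Alternatives were a q-value of 1e-05, an equal number of the strongest peaks, 50% reciprocal overlap, no flank or 25 kb, 2.5 kb from a gene end, regions at other genes' ends left out, and each library alone. RefSeq starts and 100 kb flanks were added after the data were seen.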

Additional observations from a re-analysis of the deposited data

How the results depend on the processing

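Counts were held to a margin of 1.5 times, and the covered share and its percentile to 1 SD between the values of the 2 libraries, which is wide for the covered share. Of 41 alternatives, 29 stayed within these margins and 12 did not. The number of genes with a shared region at a gene end was 5, against 44.1% of coding genes. It fell to 2 with 50% reciprocal overlap, against 22.4%, and to 3 without regions at other genes' ends, against 31.2%. Both of these were slightly below the share of coding genes, where the main count was slightly above it. With 1 library left out the count was 5 to 8. The 68 shared distal regions became 27 with 50% reciprocal overlap and 115 with 100 kb flanks, and 1 library alone gave 75 (replicate 2) to 200 (replicate 3). The 140 regions of 1 library became 36 when both lists were cut to the same number of strongest peaks, so most of them rest on the longer replicate 3 list. The median covered share of 2.88% was 1.48% with reciprocal overlap, within that SD but more than 1.5 times lower, and 2.97% to 8.68% with 1 library alone. The median percentile of 85.5 was 82 with reciprocal overlap, 81.9 with 25 kb flanks and 86.2 to 88.4 with 1 library alone. The longer ETS motifs were in 0 of 11 promoter windows and the GGAA core alone in 11. Over single genes, 91 of 110 alternatives stayed within the margin. With reciprocal overlap, shared distal regions went from 11 to 3 at *Erg*, 14 to 3 at *Ets1*, 3 to 0 at *Fli1*, 12 to 5 at *Elk3*, 13 to 7 at *Etv6*, and 3 to 1 at *Ets2* and *Tal1*, and the order of the genes changed. No paired analysis was possible because there was a single condition and no test. As depth is unknown, a region that replicate 2 lacks may still carry acetylation there.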

Other observations

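The 2 pairs of neighbouring ETS genes differed in the stretch between them, outside the 10 kb flanks. Between *Fli1* and *Ets1*, 92.8 kb apart, there were 7 regions, 4 of them shared, with the highest folds at 14.4 in replicate 2 and 55 in replicate 3. Between *Erg* and *Ets2*, 116 kb apart, there were also 7 regions, and 0 were shared, the 7 being in replicate 3 alone. These are counts over 1 stretch each, and the difference was not tested.

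Shared regions beyond 10 kb and within 100 kb of the gene were counted on each side, since *Lmo2* had few in its own locus. *Lmo2* had 3 on the lower and 3 on the higher side, of which 1 on the higher side lay at the end of another coding gene. *Elk3* had 6 and 3, *Etv6* had 0 on either side, and the 6 and 3 at *Etv2* lay at the ends of other coding genes in every case. Which gene such a region acts on was not measured.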
